A study of Homo sapiens with 4 samples.

Results

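The genes described here are snoRNA host genes, the genes whose introns carry small nucleolar RNAs (snoRNAs). They were taken as every gene of the deposited junction tables whose symbol begins with SNHG, together with GAS5, ZFAS1, EPB41L4A-AS1, DANCR, TAF1D and NCL. This gave 34 of the 35316 genes listed and 441 of the 350863 annotated splice junctions. Of the 34 genes, 31 are annotated as noncoding, and NCL, TAF1D and SNHG32 are annotated as protein-coding. At least 1 annotated snoRNA lies within 29 of them.

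The study profiled ribosome footprints, the fragments of RNA that a translating ribosome shields from nuclease, in 2 samples each of 2 established human cell lines without any treatment named in the labels. K562 was derived from a chronic myelogenous leukemia and has erythroid features, and HepG2 was derived from a liver tumor and has features of hepatocytes. All 4 samples were lysed with cycloheximide, which holds elongating ribosomes in place, and were depleted of ribosomal RNA. The samples of each line share 1 deposited table of read counts per splice junction, so no value below has a replicate check. Each exact 95% interval covers counting error only. Footprint counts do not separate the amount of an RNA from how many ribosomes it carries, nor fewer cells with an RNA from less of it per cell.

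Most human snoRNAs are cut out of spliced introns and assembled with proteins into particles that guide chemical modification of ribosomal RNA. Box C/D snoRNAs guide ribose methylation, and box H/ACA snoRNAs guide pseudouridylation. The spliced exons of a noncoding host are exported to the cytoplasm, where ribosomes can engage short reading frames and many of the RNAs are cleared by nonsense-mediated decay. A number of hosts begin with a terminal oligopyrimidine (TOP) tract, a start feature shared with ribosomal protein genes that couples translation to growth signals.

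A footprint that crosses a junction carries the exon sequence of the spliced host RNA and none of the snoRNA itself. The junctions below are shown because they took the most unique reads in each of 7 hosts, all among the 8 with the most unique reads overall. Each is 30 bases of a GENCODE release 29 transcript (build GRCh38), 5′ to 3′ on the gene's strand, with the end of the upstream exon in lower case and the start of the downstream exon in capitals. The coordinates are those of the removed intron.
NCL, intron chr2:231460867-231461539, minus strand: acgatgaggaagatgACTCTGAAGAAGAAG
SNHG29, intron chr17:16439061-16439326, plus strand: cccgttgttatggagGGCCACATCTGCCAG
SNHG8, intron chr4:118279432-118279623, plus strand: tgatggaaacataagACTATCAAGAAATCC
SNHG5, intron chr6:85678033-85678135, minus strand: tctgaagatgcaaagATACACGAAAAAACT
ZFAS1, intron chr20:49278717-49279103, plus strand: gctattgtcctgcccGTTAGAGCAGCCAGC
SNHG1, intron chr11:62855217-62855423, minus strand: agctctgttgttgcaATGTTCAGCCCACAA
SNHG16, intron chr17:76561399-76563118, plus strand: tgccatgtctttaatGTTAGCTCCCAGCGA

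The annotated starts of the noncoding hosts among those 8 are shown because of the TOP feature. Each line gives 15 bases before and 15 bases from the RefSeq start (GRCh38.p14) on the gene's strand. Capitals mark a tract of C followed by 4 or more C or T bases that begins within 5 bases of the start, searched on the gene's strand alone.
SNHG8, chr4:118278747-118278776, plus strand: aaggcctcggCCTTTCacattcgggaagcg
SNHG5, chr6:85678719-85678748, minus strand: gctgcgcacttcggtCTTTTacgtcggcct
ZFAS1, chr20:49278627-49278656, plus strand: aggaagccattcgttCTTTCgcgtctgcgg
SNHG16, chr17:76557749-76557778, plus strand: cgcaggggcggtctcgcgttCTTTTCgagg
SNHG1, chr11:62855871-62855900, minus strand: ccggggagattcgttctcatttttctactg
SNHG29, chr17:16438972-16439001, plus strand: cccctccttttgtgaggattgggatattcc
GAS5, chr1:173869031-173869060, minus strand: tgccatcatgaattcagatgtgtttatttt
SNHG8, SNHG5, ZFAS1 and SNHG16 held the tract, and SNHG1, SNHG29 and GAS5 did not at the start that RefSeq lists. GENCODE gives other outermost starts for several of these hosts, among them GAS5 (chr1:173868882), SNHG29 (chr17:16438822), SNHG1 (chr11:62855914) and ZFAS1 (chr20:49278178). A match for a promoter entry was found for 30 hosts, and 14 of them (46.67%) held the tract, against 5749 of 27305 promoters (21.05%) with 1 entry per gene. Of the 24 hosts with enough reads for the comparison below, 21 had a promoter entry. Among those 21, the tract stood at 7 of the 10 that were higher in K562 and at 4 of the other 11. The comparison itself called 13 hosts higher in K562, and SNHG6, SNHG9 and SNHG15 of these had no entry. These are counts of letters at listed starts, and which start either line uses was not measured.

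The K562 table held 7487508 uniquely mapped junction reads, 74.0% of its mapped reads, and the HepG2 table held 9927809, or 82.7%. Fixed marker genes followed the labels: 8 of 8 blood-cell markers, GATA1 among them, were higher in K562 (16804 reads summed, against 3), and 8 of 8 liver markers were higher in HepG2 (1086469 against 260). MTAP, which K562 is known to lack, had 0 K562 reads and 249 HepG2 reads. Fibroblast markers summed to 247 K562 reads and 1 HepG2 reads, and endothelial markers to 2 and 53. The part of these markers in the results below was not tested. Scaling by total reads in place of the trimmed mean of M-values (TMM) moves the median log2 ratio of K562 to HepG2 over all genes from -0.01 to 0.41, and the ratios of genes and junctions here are on the TMM scale.

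Reads were summed over the junctions of each host, so a gene's total depends on how many junctions it has and is not a level per length. A host was compared when it had 20 or more unique reads over both tables, which 24 of the 34 did. A host was called higher in a line if its ratio's interval lay past 2-fold over its full length. Of these 24 hosts, 13 were higher in K562 (54.2%), 2 were higher in HepG2 (SNHG7 and SNHG14), and 9 were neither. Among all 10956 genes compared, 16.8% were higher in K562 and 21.9% in HepG2, and among other protein-coding genes 15.9% and 22.2%. The median log2 ratio of K562 to HepG2 was 1.79 over the 24 hosts and -0.01 over all genes. The hosts were nearer to the other long noncoding genes, of which 45.1% (111 of 246) were higher in K562 and 13.8% in HepG2. Their median log2 ratio was 1.68. The 21 noncoding hosts alone gave 11 higher in K562, 2 higher in HepG2 and a median of 1.90.

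**Figure D1:**
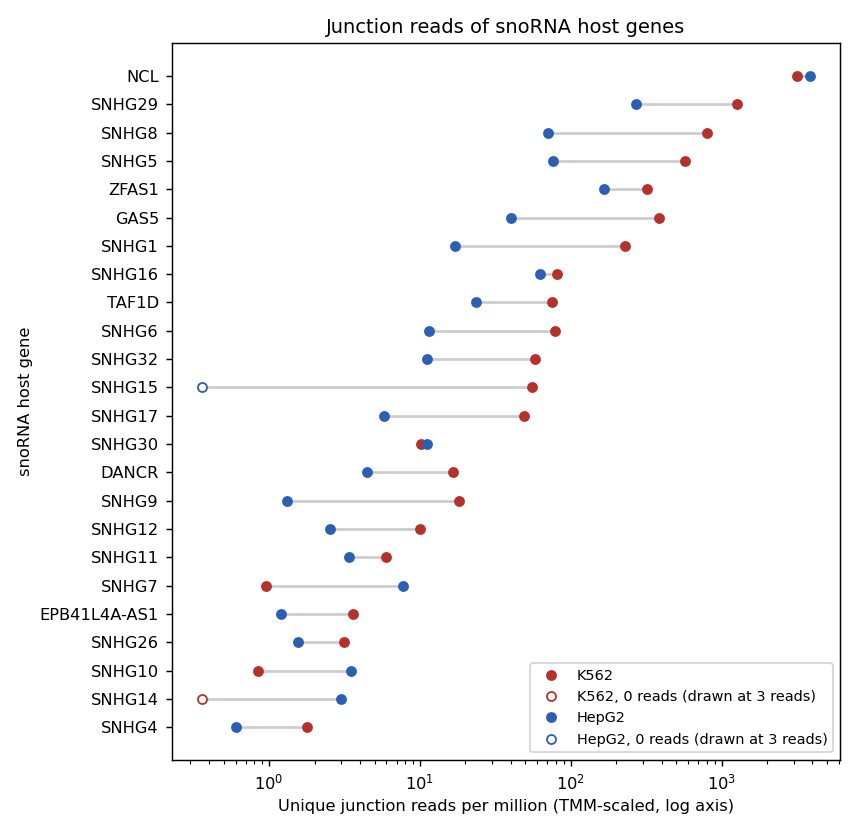
Unique junction reads scaled to depth by TMM (log axis) of the 24 compared hosts, with K562 in red and HepG2 in blue, and open circles for a count of 0 drawn at 3 reads. NCL lies highest in both lines with the points close together, while SNHG29, SNHG8, SNHG5, GAS5 and SNHG1 have the K562 point well to the right of the HepG2 point.

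As a share of all reads assigned to 1 gene, the hosts took 0.832% in K562 and 0.403% in HepG2. NCL made up much of both figures, and without it the shares were 0.466% and 0.0690%. The quotient of these shares, which total reads scale, was 6.75, and the same reads on the TMM scale gave 5.05 (4.92 to 5.19). The noncoding hosts alone took 0.451% in K562 and 0.0660% in HepG2. They supplied 58.6% of all long noncoding reads in K562 and 43.5% in HepG2. The other long noncoding genes took 0.319% of K562 reads and 0.0857% of HepG2 reads, a quotient of 3.72 (2.78 on the TMM scale).

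The protein-coding hosts were read first. NCL (ENSG00000115053, chr2:231453531-231483641) encodes nucleolin, an abundant nucleolar protein of ribosome production, and carries SNORA75, SNORD20 and SNORD82. It had 26444 K562 reads and 32061 HepG2 reads, a ratio of 0.821 (0.808 to 0.834) that turns to the other side of 1 when total reads set the scale (log2 0.13). NCL was thus counted as higher in neither line. TAF1D, a subunit of the selectivity factor that recruits RNA polymerase I, carries 8 annotated snoRNAs and had 625 K562 reads and 195 HepG2 reads. Its ratio was 3.19 (2.71 to 3.77). SNHG32, listed by GENCODE as C6orf48 and host of SNORD48 and SNORD52, had 485 K562 reads and 92 HepG2 reads, a ratio of 5.25 (4.19 to 6.63). TAF1D and SNHG32 were both counted as higher in K562.

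Among the noncoding hosts of box C/D snoRNAs, SNHG29 had the most reads. SNHG29 (ENSG00000175061, chr17:16438822-16478678), which carries SNORD49A, SNORD49B and SNORD65, had 10500 K562 reads and 2243 HepG2 reads, a ratio of 4.66 (4.45 to 4.88). SNHG5 (ENSG00000203875, chr6:85660950-85678748), the host of SNORD50A and SNORD50B, had 4780 K562 reads and 634 HepG2 reads, a ratio of 7.50 (6.91 to 8.17). GAS5 (ENSG00000234741, chr1:173863900-173868882), a gene first isolated from growth-arrested cells that carries a row of box C/D snoRNAs, had 3199 K562 reads and 334 HepG2 reads, a ratio of 9.53 (8.51 to 10.7). These 3 hosts were counted as higher in K562, and the GAS5 value rests on the 38.6% of its mapped reads that were unique. With all mapped reads GAS5 had 8283 in K562 and 865 in HepG2, and the call was the same.

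SNHG1 (ENSG00000255717, chr11:62851988-62855914), one of the first noncoding hosts described and host of a series of box C/D snoRNAs that includes SNORD22 and SNORD25, had 1901 K562 reads and 141 HepG2 reads. Its ratio of 13.4 (11.3 to 16.0) was above that of SNHG29, with intervals that did not overlap. SNHG6, the host of SNORD87, had 661 K562 reads and 96 HepG2 reads, a ratio of 6.85 (5.53 to 8.58). Both were counted as higher in K562. ZFAS1 (ENSG00000177410, chr20:49278178-49295738), a gene antisense to ZNFX1 with SNORD12, SNORD12B and SNORD12C in its introns, had 2684 K562 reads and 1384 HepG2 reads. The ratio of 1.93 (1.81 to 2.06) did not pass the rule, and on the scale of total reads the log2 ratio of 1.37 did. The other 300 genes compared on chromosome 20, which holds ZFAS1, SNHG17 and SNHG11, had a median log2 ratio of -1.32, and the part of chromosome copy number in these ratios was not tested.

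SNHG16 (ENSG00000163597, chr17:76557766-76565348), which carries SNORD1A, SNORD1B and SNORD1C, had 676 K562 reads and 518 HepG2 reads, a ratio of 1.30 (1.16 to 1.46). SNHG30, listed by GENCODE as LINC02001 and host of SNORD7, had 85 K562 reads and 93 HepG2 reads, a ratio of 0.910 (0.670 to 1.23) that changes side on the scale of total reads (log2 0.28). SNHG26, the host of SNORD93, had 26 K562 reads and 13 HepG2 reads, a ratio of 1.99 (0.987 to 4.22). None of SNHG16, SNHG30 and SNHG26 was counted as higher in a line. For SNHG26 the direction was not kept with all mapped reads, 35 in K562 and 36 in HepG2 (log2 -0.07).

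Among hosts of box H/ACA snoRNAs, SNHG8 and SNHG15 showed wide gaps between the lines. SNHG8 (ENSG00000269893, chr4:118278709-118279823), the host of SNORA24, had 6652 K562 reads and 587 HepG2 reads, a ratio of 11.3 (10.4 to 12.3). SNHG15 (ENSG00000232956, chr7:44983023-44986961), the host of SNORA9, had 463 K562 reads and 0 HepG2 reads. It was at least 124-fold higher in K562 by the bound of the exact interval, and 154-fold against a floor of 3 reads. SNHG17, with the SNORA71 group in its introns, had 408 K562 reads and 48 HepG2 reads, a ratio of 8.46 (6.26 to 11.7). SNHG9, the host of SNORA78, had 151 K562 reads and 11 HepG2 reads at its single junction, a ratio of 13.7 (7.42 to 28.0). All 4 were counted as higher in K562.

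DANCR, named as an antagonist of differentiation and host of SNORA26, had 139 K562 reads and 37 HepG2 reads, a ratio of 3.74 (2.59 to 5.53). It was counted as higher in K562, but only 31.3% of its mapped reads were unique, and all mapped reads (384 and 179) gave a log2 ratio of 1.07 that did not pass. SNHG12, which carries SNORA44, SNORA61, SNORA16A and SNORD99, had 83 K562 reads and 21 HepG2 reads, a ratio of 3.93 (2.41 to 6.69). The SNHG12 call rested on 1 junction: 66 of its K562 reads and 5 of its HepG2 reads were there, and without it the log2 ratio was 0.08. With all mapped reads (84 and 35) the SNHG12 log2 ratio was 1.23, which did not pass either. For DANCR, the log2 ratio without its most-read junction was 1.41, which did not pass the rule.

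SNHG11, a chromosome 20 host of SNORA71E and SNORA60, had 50 K562 reads and 28 HepG2 reads, a ratio of 1.78 (1.10 to 2.93). EPB41L4A-AS1, the host of SNORA13, had 30 K562 reads and 10 HepG2 reads, a ratio of 2.99 (1.42 to 6.85). SNHG4, the host of SNORA74A, had 15 K562 reads and 5 HepG2 reads, a ratio of 2.99 (1.03 to 10.5). For these 3 hosts the interval reached below 2-fold, so they did not pass the rule at this depth. The log2 ratio of EPB41L4A-AS1 with all mapped reads was 2.10, and that of SNHG4 with junctions listed for several genes was 2.01, and both of these passed the rule.

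Besides NCL and SNHG30, the hosts with a ratio on the HepG2 side were SNHG7, SNHG14 and SNHG10. SNHG7, the host of SNORA17A and SNORA17B, had 8 K562 reads and 64 HepG2 reads, an 8.04-fold (3.84 to 19.4) excess in HepG2. Only 26.8% of its mapped reads were unique, and all mapped reads (68 and 201) gave a smaller log2 ratio of K562 to HepG2, -1.60 in place of -3.01, with the same call. SNHG14, the long imprinted transcript unit that carries the SNORD115 and SNORD116 clusters, had 0 K562 reads and 25 HepG2 reads. By the bound of the exact interval it was at least 6.32-fold lower in K562, and 8.37-fold against the floor of 3 reads. SNHG7 and SNHG14 were the hosts counted as higher in HepG2. SNHG10 had 7 K562 reads and 29 HepG2 reads, and its 4.16-fold (1.78 to 11.3) excess in HepG2 did not pass the rule.

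**Figure D2:**
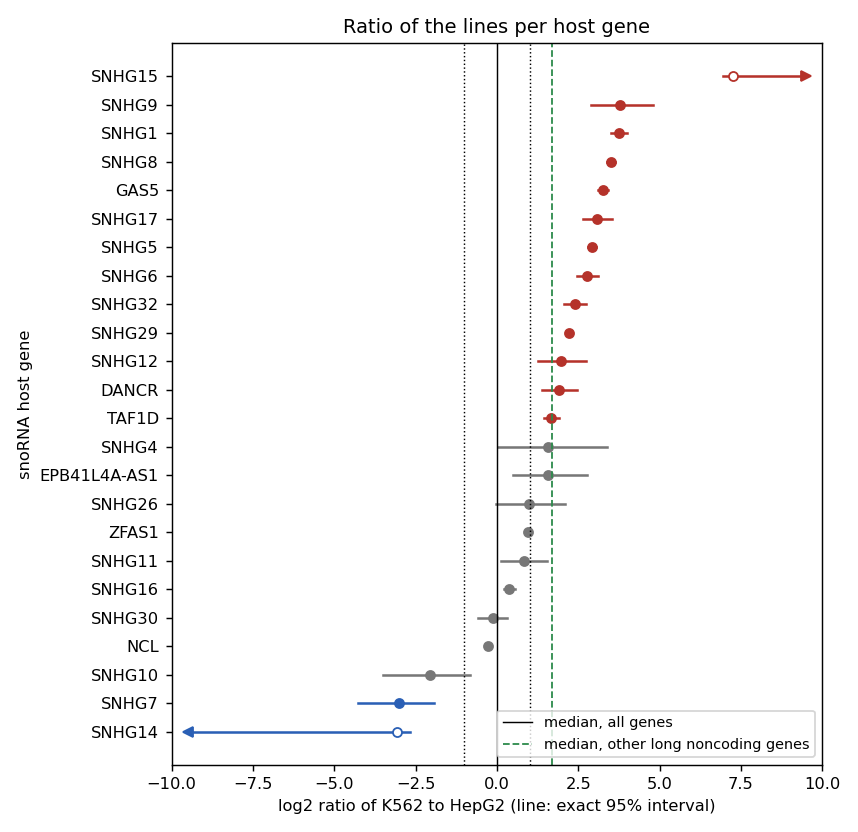
The log2 ratio of K562 to HepG2 for each compared host with its exact 95% interval, in red for hosts higher in K562, blue for hosts higher in HepG2 and gray for neither, with open points set at the floor and dotted lines at 2-fold. The 13 red intervals lie wholly to the right of the dotted line, and the dashed line for other long noncoding genes (1.68) lies among them.

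The other 10 hosts had too few reads for a ratio. SNHG21 had 14 K562 reads and 5 HepG2 reads, SNHG19 had 6 and 12, and SNHG25 had 0 and 7. No unique read at a junction of 1 gene was counted for 7 hosts: SNHG18, SNHG20, SNHG22, SNHG27, SNHG28, SNHG31 and SNHG3. SNHG3, the host of SNORA73A and SNORA73B, has no junction of its own in the tables, because both of its junctions are also listed for RCC1.

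The direction of a gene total was compared with that of its junctions, using the 104 junctions with 10 or more reads in 23 hosts. The K562 to HepG2 ratio of 89 of them (85.6%) lay on the same side of 1 as the ratio of their gene, and 86 lay above 1. Since a gene's ratio is summed from its junctions, the 2 are not independent, and over all genes compared the share was 81.4%. Single junctions of hosts passed the 2-fold rule toward K562 in 52 cases and toward HepG2 in 3, against 9.92% and 16.7% of such junctions over all genes. For genes with 3 or more such junctions, the share was 83.9% in hosts and 81.0% over all genes. The call of a host as higher in K562 already uses the reads of these junctions, so the next count is not a separate check. Of the 11 hosts that were higher in K562 and had 3 or more such junctions, 7 had every junction above 1. These were SNHG1 (13 of 13), SNHG17, SNHG32 and TAF1D (6 of 6 each), SNHG8 and SNHG5 (5 of 5 each) and SNHG6 (4 of 4). NCL, by contrast with these, had 8 junctions on either side of 1, with log2 ratios from -1.30 to 1.75.

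**Figure D3:**
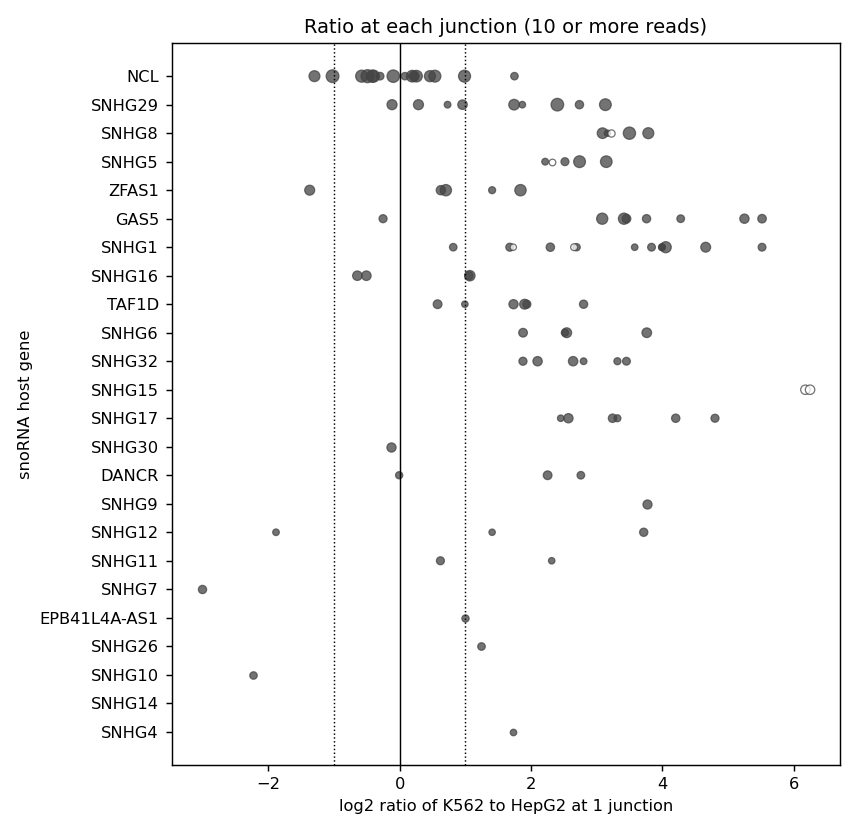
The log2 ratio of K562 to HepG2 at each junction with 10 or more reads, 1 row per host, with larger points for more reads, open points where a line had 0 reads (set at the floor) and dotted lines at 2-fold. Points of SNHG8, SNHG5, SNHG1 and SNHG17 all lie to the right of 0, whereas those of NCL and SNHG16 lie on both sides.

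The junctions with the most reads were then read host by host. In SNHG29 the first junction shown above took 6697 K562 reads and 1262 HepG2 reads, which was 63.8% of the gene's reads in K562. The junction over the introns of SNORD49A and SNORD49B (chr17:16439415-16440184) took 2493 K562 reads and 283 HepG2 reads, and chr17:16440254-16441073 took 622 and 185. All 3 were higher in K562, with ratios of 5.28, 8.77 and 3.35. In SNHG8 the junction shown took 4847 K562 reads and 427 HepG2 reads (72.9% of the gene's reads in K562). The SNORA24 intron was removed through either of 2 upstream exon ends, with 1067 and 77 reads for chr4:118278793-118279388 and 701 and 82 for chr4:118279138-118279388.

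Unique reads of SNHG5 lay almost wholly on a pair of junctions without a snoRNA between their exons. The junction shown had 2576 K562 reads and 384 HepG2 reads, and chr6:85678189-85678693 had 2125 and 239. The next, chr6:85677876-85677953, had 46 and 8. In SNHG1, the SNORD26 intron shown took 1232 K562 reads and 74 HepG2 reads, chr11:62852682-62852810, which holds no snoRNA, took 330 and 13, and the SNORD28 intron at chr11:62854552-62854887 took 69 and 14. Both hosts were higher in K562 at each of these junctions.

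GAS5 showed the widest spread over its introns. The SNORD76 intron (chr1:173866568-173866760) had 1278 K562 reads and 150 HepG2 reads, a ratio of 8.48 (7.16 to 10.1), and the SNORD44 intron (chr1:173865895-173866176) had 191 and 5, with an interval of the ratio from 16.0 to 118. Most mapped reads at the SNORD44 intron were not unique. With all mapped reads it had 714 in K562 and 170 in HepG2, a much smaller gap. The SNORD80 intron (chr1:173864705-173865228) stood apart with 27 K562 reads and 32 HepG2 reads, a ratio of 0.840 (0.484 to 1.45). It was the 1 junction of the 8 in GAS5 with 10 or more reads that did not pass toward K562.

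In ZFAS1 the junctions did not move together. The SNORD12C intron shown had 1392 K562 reads and 387 HepG2 reads, and the SNORD12B intron (chr20:49279209-49280484) had 1044 and 638. The longer intron from the same donor, chr20:49279209-49289044, had 107 K562 reads and 275 HepG2 reads and passed the rule toward HepG2. SNHG16 was split as well: its SNORD1A intron shown had 430 K562 reads and 204 HepG2 reads, whereas chr17:76557858-76561287 had 104 and 147 and chr17:76557858-76558944 had 92 and 143. Without the SNORD1A junction the log2 ratio of SNHG16 was -0.36.

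In NCL the junction shown, which joins exons of the coding sequence, had 5898 K562 reads and 8234 HepG2 reads. The junction chr2:231457801-231458265 had 3233 and 6527, and chr2:231458390-231459000 had 3228 and 3435. The first junction of the gene, chr2:231463317-231464335, leaned the other way with 2681 and 1345 (ratio 1.98, 1.86 to 2.12). The 1 NCL junction that passed, toward HepG2, was chr2:231456765-231457000 with 313 K562 reads and 765 HepG2 reads.

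**Figure D4:**
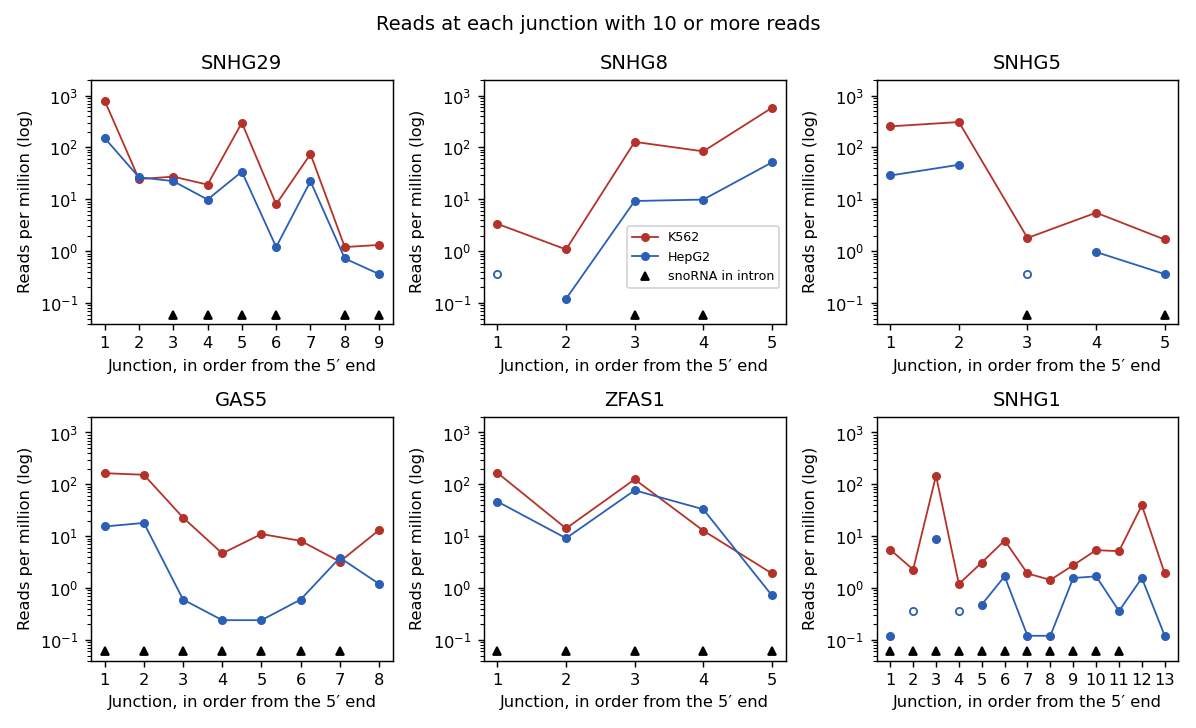
Reads scaled to depth by TMM (log axis) at each junction with 10 or more reads of 6 hosts, numbered from the 5′ end, with K562 in red, HepG2 in blue, open circles for 0 reads drawn at the floor and triangles under introns that hold a snoRNA. The red line lies above the blue one throughout SNHG8, SNHG5 and SNHG1, and the lines cross in SNHG29, GAS5 and ZFAS1.

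Where a splice site was used by more than 1 junction, the share of its reads on each junction was compared, a measure that does not depend on how much of a gene was read. A junction was counted when the site had 20 or more reads in each table, the shares differed by 20 percentage points or more and their exact 95% intervals did not overlap. Of 69 host junctions at 34 sites, 6 were counted (8.70%), in SNHG29, ZFAS1 and SNHG6, against 4.71% of junctions over all genes. Counted junctions of the same site are not independent, since one share falls as the other rises. The counted junctions of SNHG29 and ZFAS1 are shown with the acceptor exon in capitals, so that the bases shared by a pair and those that differ can be seen.
SNHG29, intron chr17:16439415-16440184, plus strand: acccgagagaactggGTTGCAAATTCGTGA
SNHG29, intron chr17:16439415-16439527, plus strand: acccgagagaactggGAAGTGCCGTCAGAA
ZFAS1, intron chr20:49279209-49280484, plus strand: tcgatctcctgacgaGTTTATTGTTGGCCA
ZFAS1, intron chr20:49279209-49289044, plus strand: tcgatctcctgacgaAAACTGGCGATGGAA

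From the SNHG29 donor, the far acceptor took 2493 of 3086 K562 reads (80.8%, 79.3 to 82.2) and 283 of 773 HepG2 reads (36.6%, 33.2 to 40.1). The near acceptor took 205 in K562 (6.64%) and 221 in HepG2 (28.6%). An intermediate acceptor at chr17:16439415-16439580 took 228 (7.39%) and 186 (24.1%), a difference below 20 points. The intron of 770 bases that removes both SNORD49A and SNORD49B thus held most of the site's reads in K562 and a minority in HepG2.

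From the ZFAS1 donor, the SNORD12B intron took 1044 of 1151 K562 reads (90.7%) and 638 of 913 HepG2 reads (69.9%), and the longer intron that spans SNORD12B and SNORD12 took 107 (9.30%) and 275 (30.1%). In SNHG6, the acceptor of the SNORD87 intron was joined to its near donor by 259 of 344 reads in K562 (75.3%) and by 19 of 42 in HepG2 (45.2%), and to its far donor by 85 (24.7%) and 23 (54.8%). The HepG2 figure for SNHG6 has few reads behind it, and with 50 or more reads required at a site only the SNHG29 and ZFAS1 junctions were counted. In SNHG17 a donor of the SNORA71 region differed by 18.4 points with intervals that overlapped, so it was not counted.

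**Figure D5:**
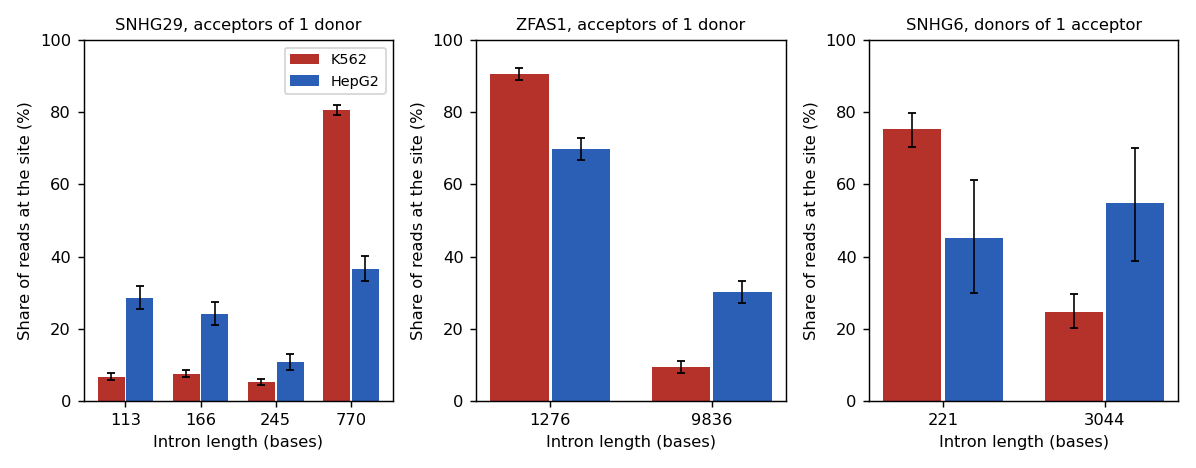
Share of reads (%) on each junction of 1 splice site in SNHG29, ZFAS1 and SNHG6, with bars by intron length in bases for K562 (red) and HepG2 (blue) and error lines for exact 95% intervals, leaving out junctions under 10 reads. The bar for the SNHG29 intron of 770 bases is 80.8% in K562 and 36.6% in HepG2.

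Over the 341 junctions of the 21 noncoding hosts compared, 193 (56.6%) span an intron with an annotated snoRNA. Their share of the reads was 43.1% in K562 and 53.8% in HepG2. Junctions over snoRNA introns gave a pooled ratio of K562 to HepG2 of 4.10 (3.95 to 4.26), and those without a snoRNA gave 6.30 (6.06 to 6.56). Those pooled figures follow the hosts with the most reads: SNHG5 had 0.669% of its unique K562 reads at snoRNA introns, while ZFAS1 had 99.8% and GAS5 96.5%. With all mapped reads the SNHG5 share was 12.3%, since most mapped reads at its SNORD50A and SNORD50B introns were not unique. A share of 33.4% in K562 and 48.3% in HepG2 was found with the snoRNAs of GENCODE alone, which does not list those of GAS5.

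Junctions in the first 100 bases of the longest transcript that holds them were 34 of the 341 (9.97%) and took 40.9% of the reads in K562 and 38.8% in HepG2. Junctions past 100 and up to 300 bases took 4.04% and 2.45%, and those beyond 300 bases took 55.0% and 58.8%. These positions depend on the transcript chosen, because measured on the transcript that gives the smallest distance the first 100 bases took 73.4% in K562 and 73.2% in HepG2. GAS5 had 82.8% of its unique K562 reads in the first 100 bases, SNHG29 66.0% and SNHG8 16.6%. In GAS5, chr1:173867044-173867959 within the first 100 bases had 0 unique and 1730 mapped K562 reads. Beyond 300 bases, chr1:173866207-173866527 had 0 and 1250, and the GAS5 share would be lower with all mapped reads.

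Reading frames were read in the same way, as frames of 10 or more codons from an AUG. Inside the first AUG frame of the longest transcript lay 45 junctions (13.2%), with 40.9% of the reads in K562 and 41.6% in HepG2. Inside any AUG frame of that transcript lay 208 junctions (61.0%), with 76.0% and 64.6%. SNHG29 had 89.5% of its K562 reads and 78.9% of its HepG2 reads inside its first frame, and GAS5 had 83.0% and 83.2%. SNHG8 and ZFAS1 had 0% there in both lines, so the hosts differed widely in this measure. The GAS5 figures rest on the 38.6% of its mapped reads that were unique. Outside the first frame, chr1:173867044-173867959 had 0 unique reads but 1730 mapped reads in K562 and 84 in HepG2. Likewise, chr1:173866207-173866527 had 1250 and 153, so the GAS5 shares would be lower with all mapped reads. Frames are a property of the annotated sequence, and no reading phase was measured.

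Protein-coding genes with a snoRNA in an intron were set beside the hosts. Of 185 compared, 17.3% were higher in K562 and 15.1% in HepG2. Their median log2 ratio was 0.21. The 26 that encode ribosomal proteins gave 13 higher in K562, 0 higher in HepG2 and a median of 1.20. The other 159 gave 19 and 28 with a median of 0.05. This split was not planned, and ribosomal protein genes without a snoRNA were not set beside the 26. RPL30, a ribosomal protein gene and the most-read of the 185, had 21136 K562 reads and 29242 HepG2 reads, a ratio of 0.719 (0.707 to 0.732). EEF2, the elongation factor that moves the ribosome along, had 29456 and 12927 (2.27, 2.22 to 2.32), and RPL37 had 25096 and 5070 (4.93, 4.78 to 5.08). Among the hosts higher in HepG2, PCNA, the sliding clamp of DNA replication, had the most reads, 4989 in K562 against 13384 (ratio 0.371, 0.359 to 0.383).

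Genes that make, release or clear host products were counted by the same rule, which 16.8% of all genes passed toward K562 and 21.9% toward HepG2. Of the 4 core proteins of box C/D particles none passed (median log2 ratio 0.86), among them NOP58 with 6273 K562 reads and 3048 HepG2 reads and FBL, the methyltransferase, with 4030 and 2479. Of 6 box H/ACA genes only GAR1 passed, at 1245 and 483 reads (2.57, 2.31 to 2.86), while DKC1, the pseudouridine synthase, had 5382 and 3120. None of 8 snoRNP assembly genes passed (median 0.63), nor any of 4 intron release genes (median -0.06), of which DHX15, a helicase that takes spent spliceosomes apart, had 3110 K562 reads and 2225 HepG2 reads.

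Among 10 genes of nonsense-mediated decay, UPF3B (893 and 225 reads, ratio 3.95, 3.41 to 4.59) and SMG9 (1044 and 451, ratio 2.30, 2.06 to 2.58) passed toward K562 and the other 8 passed in neither direction. UPF1, the central helicase of the pathway, had 2140 K562 reads and 1906 HepG2 reads. The median log2 ratio of the 10 was 0.25. None of the 5 genes listed under TOP RNA binding (LARP1, LARP4, LARP4B, SSB and CNBP) passed. Their median was 0.63, and LARP1 had 1729 K562 reads and 1114 HepG2 reads. Of 9 partners of ribosomal RNA synthesis and processing, TCOF1 alone passed, with 2265 and 1042 reads (2.16, 2.01 to 2.33), and the median was 0.13.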

How the data were processed

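Ribosome profiling was done on 2 samples of K562 and 2 of HepG2. The authors deposited raw counts of reads at annotated splice junctions, 1 table per line, with columns for all mapped and for unique reads, per the file headers. The submitters' processing notes name cutadapt, Bowtie2, STAR 2.6.0 and GRCh38. What each tool did, which annotation was used and how junctions were counted is not given in the sources used here. Of the 350863 junctions, 349756 match introns of GENCODE release 29, as do all host junctions.

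A gene's value is the sum of unique reads at its own junctions; the 6033 junctions listed for several genes were left out. Depth was scaled by TMM (edgeR 4.0.16), and ratios carry exact conditional binomial 95% intervals (scipy 1.17.1). The counts were not corrected here by molecular identifiers, so reads may repeat a molecule. A count of 0 was set to 3 counts for point ratios and figures alone, and the intervals, calls and shares used the 0. snoRNAs were those of GENCODE on the gene's strand, plus RefSeq snoRNAs, whose strand is not in the table used. The calculations were tested on simulated data.

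Named genes were every host with 20 or more reads, the most-read junctions of the 8 hosts with the most reads, every junction that passed the share rule, and, of each related list, genes among the 3 with the most reads or past 2-fold. PCNA was chosen after its values were seen. The most-read junction of 1 of those hosts is not reported here. Junctions of other hosts named here were chosen after their values were seen. The host genes and the lists were chosen with earlier results of these data known. Alternatives were other scalings (DESeq2 1.42.0 size factors, total reads, coding genes), all mapped reads, other read minimums, 99% intervals, junctions of several genes, and the most-read junction left out.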

Additional observations from a re-analysis of the deposited data

Results flagged for a closer look

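Reads of host junctions that the comparisons do not use were counted separately. Junctions listed for both MATR3 and SNHG4 had 1537 unique reads in K562 and 382 in HepG2, far above the reads at junctions of SNHG4 alone, and the tables do not say which gene they came from. Junctions listed for both RCC1 and SNHG3 had 150 and 123.

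At some host junctions every mapped read also mapped elsewhere. In GAS5, 4 such junctions had 3005 mapped reads in K562 and 239 in HepG2. In SNHG5 they had 358 and 53, in SNHG7 60 and 137, in SNHG16 28 and 26, and in TAF1D 9 in K562. Their place of origin cannot be told from the tables, and a read can be counted at more than 1 place.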

How the results depend on the processing

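Wherever the alternatives compared them, 15 of the 24 hosts kept both direction and call, and so did 11 of the 13 hosts higher in K562, the exceptions being DANCR and SNHG12. The number of hosts higher in K562 ran from 10 of 16 compared without the most-read junction to 14 of 24 with total reads. The number higher in HepG2 was 2, and 0 both with a minimum of 100 reads and without the most-read junction, where fewer hosts were compared. The direction turned for NCL (0.13) and SNHG30 (0.28) with total reads, for SNHG26 (-0.074) with all mapped reads and for SNHG16 (-0.36) without its most-read junction (log2 ratios).

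The hosts' share of reads was 0.695% in K562 and 0.349% in HepG2 with all mapped reads, 0.723% and 0.398% without the most-read junction, and 0.466% and 0.0690% without NCL, an alternative chosen after seeing the data. Junctions on the side of their gene made up 92.3% with total reads. With all mapped reads, snoRNA introns of noncoding hosts took 51.9% in K562 and 56.6% in HepG2, the first 100 bases 42.0% and 36.2%, and first AUG frames 37.8% and 39.1%. With the snoRNAs of GENCODE alone, also chosen after seeing the data, snoRNA introns took 33.4% and 48.3%. With the smallest distance over transcripts, the first 100 bases took 73.4% and 73.2%, and any AUG frame 76.0% and 64.6%. The causes were not tested.

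No paired analysis was possible because each table pools the samples of a line, and for the same reason no sample was left out. The tables give no measure of how cultures vary. Hosts with few reads, such as SNHG4 and SNHG26, have intervals too wide to place them on either side of 2-fold.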
